A study of Arabidopsis thaliana with 8 samples.

Results

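VANDAL elements are DNA transposons of the MuDR superfamily, a group named after the maize Mutator regulatory element. The members were chosen by annotation alone: every interval that the deposited files list as a transposable element of the class DNA/MuDR with a family name beginning VANDAL. This gave 1565 elements in 28 families, among 109972 genomic intervals and 31189 transposable elements. They ranged from 11 to 22996 bp with a median of 283 bp. 62.0% lay in the pericentromeric regions, the repeat-rich stretches beside the centromeres, and 331 overlapped an annotated gene.

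The study compared chromatin of Arabidopsis thaliana ecotype Col-0 in leaf and in suspension cell culture by ChIP-seq, the sequencing of DNA that comes down with an antibody. Leaf came from wild-type plants raised on MS agar plates, and its fixation is not stated in the labels. The culture was a Col-0 cell line kept in liquid medium with 1.1 mg/l of the synthetic auxin 2,4-D, moved to fresh medium every 7 d and fixed with paraformaldehyde. Both sample types were probed for total histone H3 and for the modified forms H3K4me3, H3K27me3 and H3K9me2, with 1 library per antibody and 8 libraries in all. There was therefore no replicate, no test across samples could be made, and every interval below is a 95% interval for counting error only. No input library and no spike-in were used here, so a gain of H3 reads from more DNA copies and one from more H3 on the same DNA cannot be told apart.

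H3K9me2 is a mark of silenced transposons in plants and is maintained together with DNA methylation outside CG sites. H3K27me3 is the mark of Polycomb repression, found mostly over genes, and H3K4me3 marks the start of transcribed genes. Long VANDAL elements can carry genes for a transposase, VANA, and for accessory proteins. In VANDAL21 and VANDAL6 one of these, VANC, is known to bind copies of its own family and to reduce their DNA methylation, so these families are known for an anti-silencing activity of their own. Names that end in N1, NA or NB mark families described as non-autonomous, which need proteins supplied by other elements in order to move.

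The libraries held 1679480 to 5672742 reads, of which 1449274 to 5649143 fell on the 5 nuclear chromosomes. Libraries were scaled to their nuclear reads (RPM, reads scaled to a library of 1000000 nuclear reads). A level is the log2 ratio of a mark to H3 in the same sample type, and a change is culture minus leaf of that level, or for H3 itself of its log2 RPM. Single elements were read only where both H3 libraries had at least 10 reads, which 385 of the 1565 VANDAL elements (24.6%) reached against 11.7% of all transposable elements. These 385 held 88.3% of the leaf and 90.9% of the culture H3 reads over VANDAL elements, with a median of 28 and 83 H3 reads. An element was called higher or lower where it changed at least 2-fold and the counting interval excluded 0. The sample labels were checked on gene markers. In culture, 4 of 6 genes of dividing cells were called higher for H3K4me3 and none lower. Of 5 photosynthesis genes with enough reads, 2 were called lower and none higher, so the labels and markers went the same way for part of each list.

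VANDAL elements took 23189 H3, 21716 H3K4me3, 26107 H3K27me3 and 100456 H3K9me2 reads in leaf. In culture they took 71488 H3, 51427 H3K4me3, 125282 H3K27me3 and 150811 H3K9me2 reads. As shares of the nuclear reads in leaf these were 1.60%, 1.05%, 1.21% and 5.55%, and in culture 2.29%, 1.48%, 2.22% and 4.62%. H3K9me2 was thus the richest of the 3 marks over VANDAL elements in both sample types, and the only library pair in which their share was lower in culture.

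Over the summed reads of all 1565 elements the H3K9me2 level was 1.79 in leaf and 1.01 in culture, a change of -0.78 (counting interval -0.81 to -0.76). The H3K27me3 level moved from -0.41 to -0.05, a change of 0.36 (0.33 to 0.39). The H3K4me3 level was -0.61 in leaf and -0.63 in culture, a change of -0.02 (-0.05 to 0.01). H3 itself was higher by 0.52 (0.50 to 0.54). The H3K9me2 change was -0.26 without H3 and turned to 0.37 when scaled to the median element. H3K9me2 over VANDAL elements was above H3 in both sample types, while H3K4me3 over H3 differed by no more than counting error.

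The other 29624 transposable elements gave a summed H3K9me2 change of -0.63, so that VANDAL elements were lower by a further -0.15 (-0.18 to -0.13). The medians of single elements were in the opposite order, -0.45 over the 385 VANDAL elements against -1.16 over all 3642 transposable elements with enough H3 reads. The order of the sums also depended on length. Over 4000 bp the summed change was -1.02 in 160 VANDAL and -1.45 in 1075 other elements, a difference of 0.43 (0.40 to 0.46). Between 1000 and 4000 bp it was -0.13 in 247 VANDAL and -0.64 in 4444 other elements, a difference of 0.51 (0.45 to 0.57). Up to 1000 bp it was -0.18 in 1158 VANDAL and 0.87 in 24105 other elements, a difference of -1.05 (-1.13 to -0.97). In that shortest class the single elements above the minimum were in the opposite order to the sums, with a median of -0.09 and 11 of 45 called lower in VANDAL against -0.71 and 143 of 370 in other elements, and the sum of the others was 0.016 without H3. In both longer classes VANDAL elements had the higher sums and also the higher medians, 0.016 against -1.01 and -0.94 against -2.06. For H3K27me3 the summed change was 0.36 in VANDAL and 1.00 in the other elements, and for H3K4me3 -0.02 and 0.27. The non-VANDAL elements of the same MuDR class differed from VANDAL elements in the sums, with changes of 0.29 for H3K9me2, 1.16 for H3K27me3 and 0.79 for H3K4me3 beside an H3 change of -1.07. Their H3K9me2 and H3K4me3 sums were negative without H3, at -0.78 and -0.28. The median of their 110 elements above the minimum was -1.10 for H3K9me2, with 58 called lower and 13 higher, and -0.12 for H3K27me3.

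Of the 385 VANDAL elements, 134 were called lower for H3K9me2 and 45 higher. Among all transposable elements 51.9% were called lower and 8.87% higher, and among VANDAL elements 34.8% and 11.7%. Since the median transposable element had itself changed by -1.16, a count relative to that median splits the other way, with 149 VANDAL elements higher and 47 lower, against 27.3% and 30.8% of all transposable elements. In leaf, 249 of the 385 VANDAL elements (64.7%) were at least 2-fold over H3 for H3K9me2, with a share of 71.4% among all transposable elements. In culture the number was 186 (48.3%), with a share of 30.1% among all transposable elements, and 131 VANDAL elements were over that line in both sample types.

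The families were far from uniform. The summed H3K9me2 change was below 0 in 22 of the 28 families (17 without division by H3) and at least 2-fold lower in 9, but relative to the median element it stayed below 0 only in the 8 families under -1.16. The families with at least 3 elements above the H3 minimum numbered 23, and the other 5 families hold 107 members. Among the 23, VANDAL21 changed the most over H3 (-3.10), followed by VANDAL6 (-2.02), VANDAL22 (-1.84), VANDAL16 (-1.81), VANDAL2 (-1.30), VANDAL14 (-1.17) and VANDAL15 (-1.09). Without H3 the order differed, with VANDAL6 at -1.89, VANDAL16 at -1.71, VANDAL22 at -1.54 and VANDAL21 at -1.44. Over H3, VANDAL3, the family with the most elements above the minimum, stood at -0.03 (-0.09 to 0.03). VANDAL2N1, VANDAL12, VANDAL9 and VANDAL1N1 had values of 0.28, 0.37, 0.38 and 0.50, each of which turned negative when the libraries were scaled to the median gene. The VANDAL1N1 value was also negative without H3, at -0.28. In leaf 22 families were at least 2-fold over H3 for H3K9me2, and in culture 14.

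**Figure D1:**
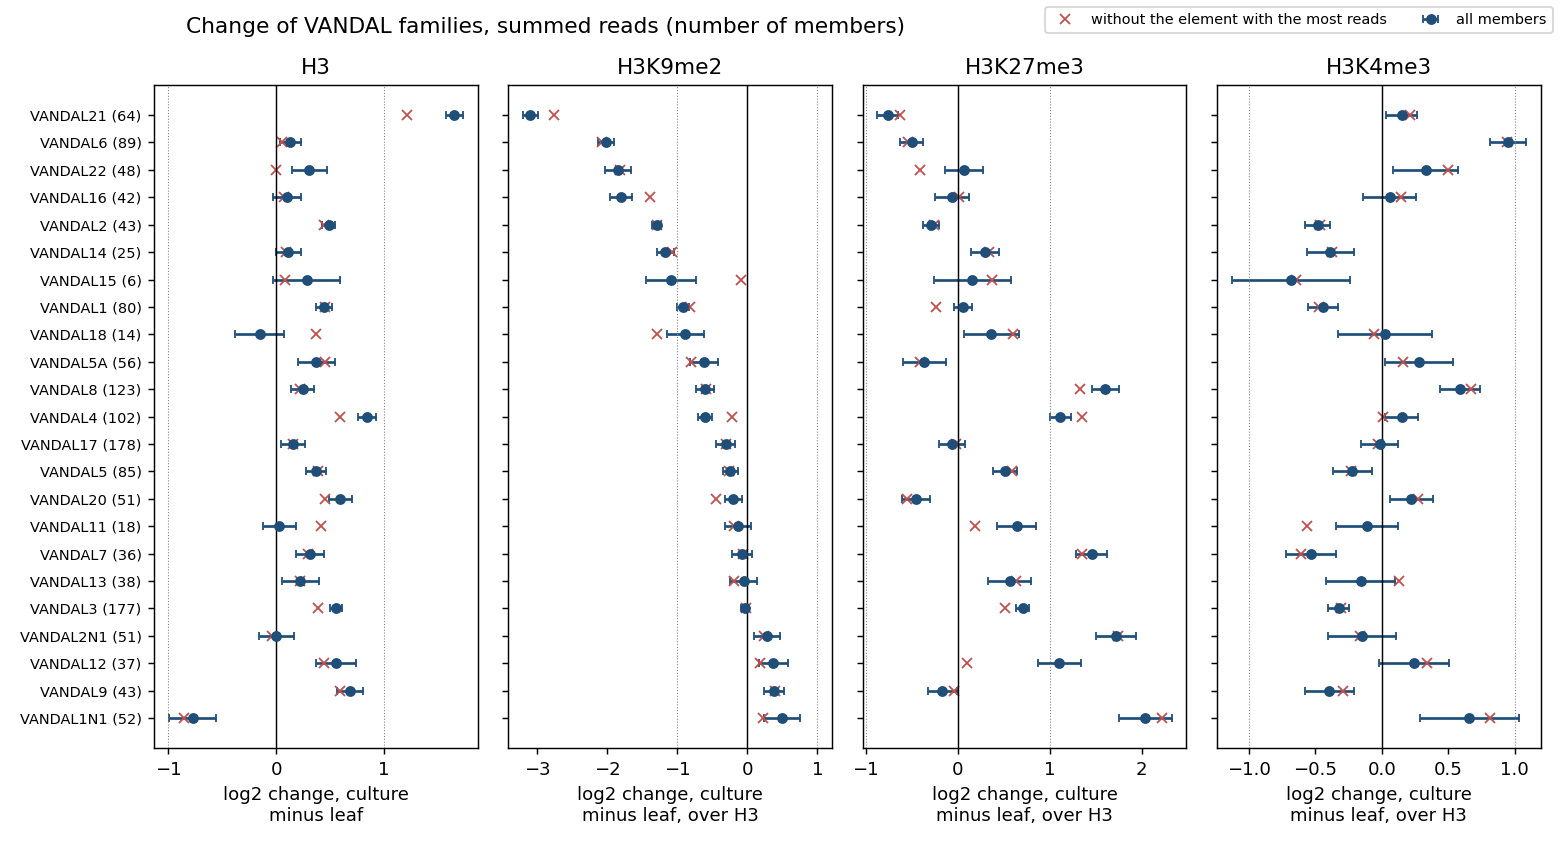
Log2 change from leaf to culture for the 23 VANDAL families with at least 3 elements above the H3 minimum, for H3 reads scaled to nuclear reads and for each mark over H3. Points are summed reads of all members with 95% counting intervals, crosses leave out the element with the most reads, and dotted lines mark 2-fold. VANDAL21 stands apart for H3 (1.65) and for H3K9me2 over H3 (-3.10). Its H3K9me2 change without H3 was -1.44, and that of VANDAL6 was -1.89. VANDAL6 stands apart for H3K4me3 (0.95). The highest H3K27me3 values are those of VANDAL1N1 (2.04) and VANDAL2N1 (1.72), with VANDAL8 and VANDAL7 close to the latter.

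VANDAL21 has 64 members, 29 of them above the H3 minimum. Its 1369 H3, 1469 H3K4me3, 1541 H3K27me3 and 5095 H3K9me2 reads in leaf became 9256, 8578, 7490 and 3372 in culture. The H3K9me2 level went from 1.57 to -1.52, from well over H3 to well under it. The H3 change was 1.65 (1.57 to 1.73), the only family change of H3 that was 2-fold upward. 1 element, AT2TE42810, held 29.6% of the culture H3 reads of the family, and without it the changes were 1.21 for H3 and -2.75 for H3K9me2. H3K9me2 reads fell also without division by H3, by 1.44. H3K27me3 over H3 changed by -0.76, which turned to 0.89 without H3, and H3K4me3 over H3 changed by 0.15, which became 1.80 without H3. Against all other VANDAL families the VANDAL21 H3K9me2 change over H3 was lower by a difference of -2.47 (-2.58 to -2.36). Without H3 the changes were closer, at -1.44 in VANDAL21 and -0.22 in the other families.

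Among single VANDAL21 elements, 25 of 29 were called lower for H3K9me2 and none higher, against 51.9% and 8.87% of all transposable elements. For H3, 8 of the 29 were called higher and 1 lower, where 13.6% of all transposable elements were called higher and 4.15% lower. Over all VANDAL elements those H3 counts were 42 and 10. The 16 VANDAL21 elements over 4000 bp had 39 to 109 H3 reads in leaf, a median of 67.5, and 104 to 2735 in culture, a median of 287.5. Their H3K9me2 reads had a lowest value of 95, a median of 273 and a highest of 518 in leaf, and of 48, 128 and 541 in culture. Scaled to nuclear reads, all 16 had fewer H3K9me2 reads in culture than in leaf, by -3.51 to -0.50. Their H3 changes spread from -0.04 to 4.38, and 7 were called higher. So H3K9me2 was lower in all 16 long copies. Over H3, 15 of the 16 were called lower, against 68.0% of non-VANDAL elements over 4000 bp. Without H3 the summed change was -1.44 in the 16 copies and -0.96 in those non-VANDAL elements. The H3 change was above 0 in 15 of the 16 copies, with a median of 0.82 against 0.35 in other VANDAL elements over 4000 bp, but its size varied widely.

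**Figure D2:**
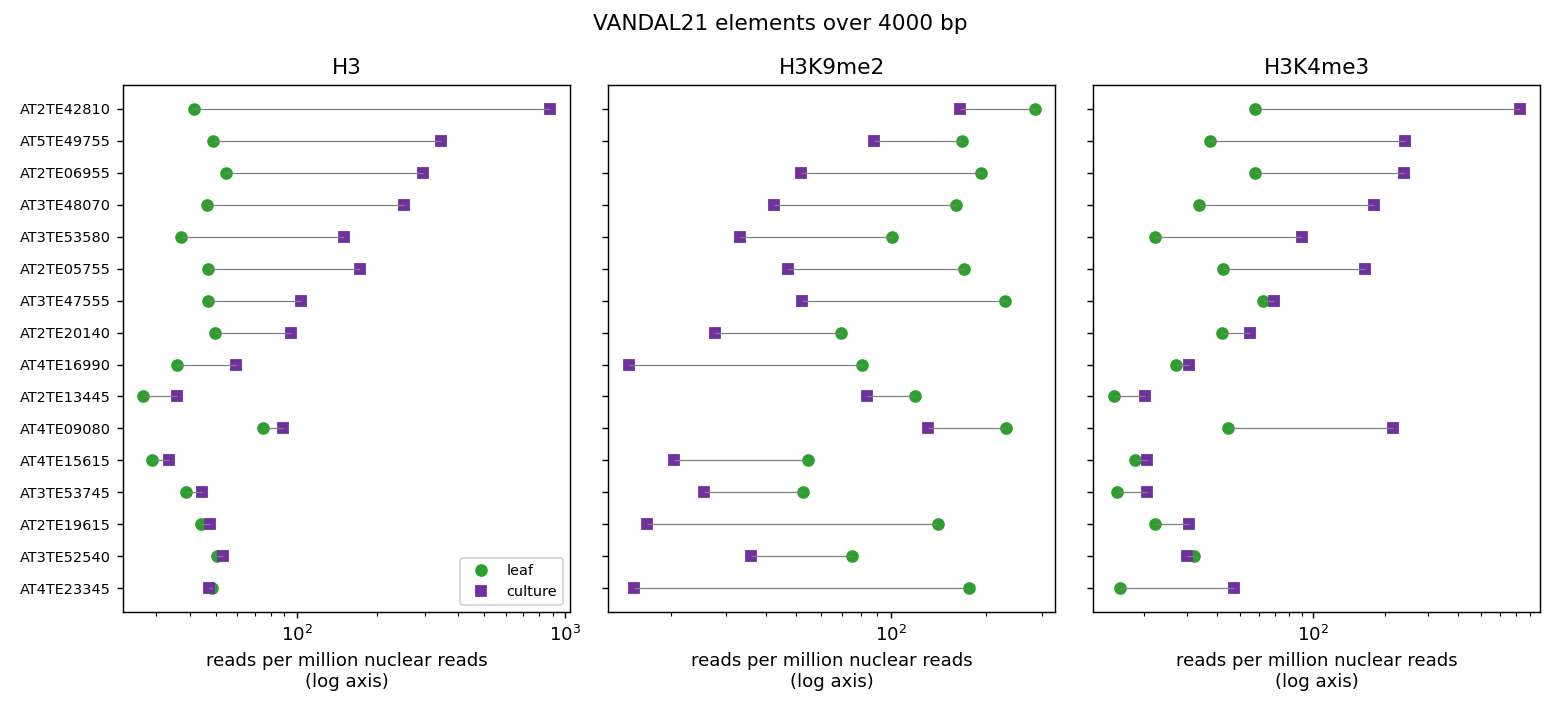
RPM on log axes over each of the 16 VANDAL21 elements longer than 4000 bp, in leaf (circles) and culture (squares), for H3, H3K9me2 and H3K4me3, ordered by the H3 change. H3K9me2 is lower in culture for every one of them, whereas the H3 change ranges from -0.04 in AT4TE23345 to 4.38 in AT2TE42810, which reaches 878 RPM in culture.

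AT2TE42810, on chromosome 2 at 10001480 to 10009658 (TAIR10, 8179 bp, in the chromosome arm), is the copy known as Hiun, the autonomous VANDAL21 element from which VANC was described. The RefSeq annotation lists 3 pseudogenes inside it, AT2G23480, AT2G23490 and AT2G23500. In leaf it had 60 H3, 120 H3K4me3, 86 H3K27me3 and 518 H3K9me2 reads. In culture it had 2735 H3, 2521 H3K4me3, 1790 H3K27me3 and 541 H3K9me2 reads. H3 and both euchromatic and Polycomb marks multiplied together, while H3K9me2 went from 286 RPM in leaf to 166 RPM in culture. The H3 change was 4.38 (4.02 to 4.75), rank 2 of the 3642 transposable elements read. Over H3, H3K9me2 changed by -5.17 (-5.57 to -4.76), H3K27me3 by -1.41 (-1.89 to -0.93) and H3K4me3 by -0.75 (-1.20 to -0.29). Without H3 these became -0.79, 2.98 and 3.64, so the sign of the H3K27me3 and H3K4me3 values depends on the division.

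The H3 gain ended at the borders of the element. RUS4 (AT2G23470), which overlaps its start by a few bases, had 33 H3 reads in leaf and 40 in culture. SDT (AT2G23510), an acyltransferase gene on the other side, had 24 and 27. The intervals within 5 kb, summed, changed by -0.80 (-1.11 to -0.49) in H3. The same held for AT2TE06955, with 79 H3 reads in leaf and 921 in culture, a change of 2.42 beside 0.07 (-0.27 to 0.41) for its surroundings. AT3TE48070 went from 67 to 780 H3 reads, a change of 2.42 beside -0.33 (-0.75 to 0.09), and AT3TE53580 from 54 to 467, a change of 1.98 beside 0.05 (-0.31 to 0.42). In AT2TE05755 (68 and 537 H3 reads, 1.86) and AT5TE49755 (71 and 1080, 2.80) the surroundings were higher too, by 0.62 and 1.68, but by less than the element. In AT3TE47555 (68 and 325 H3 reads, 1.14) they were higher by 1.4, no less than the element itself. The placing of reads that match several copies is not stated in the labels, so the split of reads between near-identical VANDAL21 copies is uncertain.

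**Figure D3:**
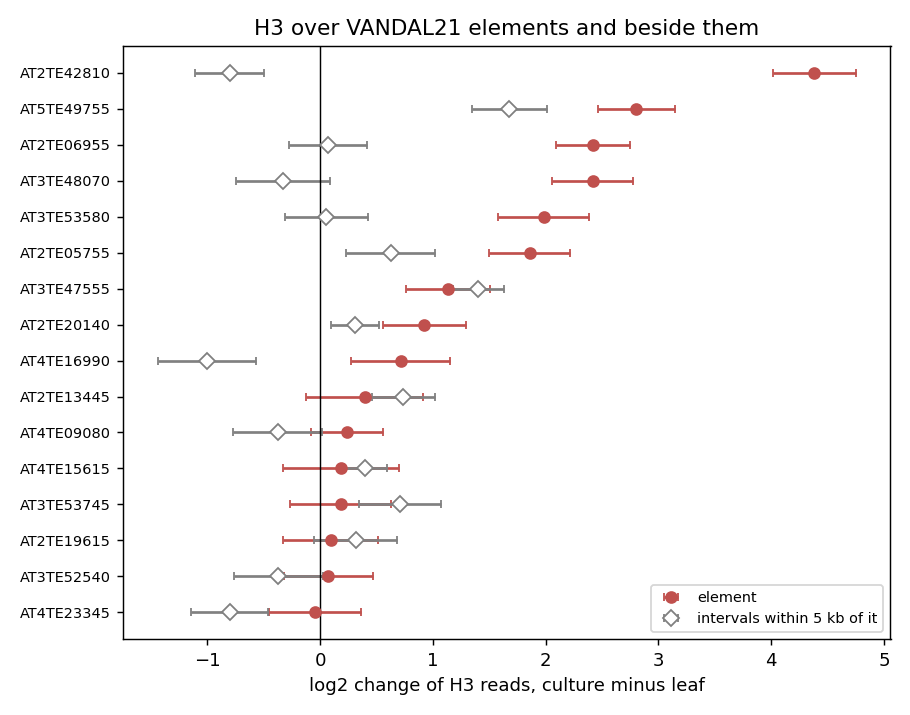
Log2 change of H3 RPM from leaf to culture for the 16 VANDAL21 elements longer than 4000 bp (circles) and for the annotated intervals within 5 kb of each (diamonds), with 95% counting intervals. Of the 7 elements called higher, 6 lie to the right of their surroundings and AT3TE47555 does not.

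Not every long VANDAL21 copy gained H3. AT4TE23345 (chromosome 4, 5567794 to 5575599) had 70 H3 reads in leaf and 147 in culture, a change of -0.04. Its H3K9me2 reads went from 321 to 50 and its H3K4me3 reads from 33 to 163, which gave changes over H3 of -3.46 (-4.05 to -2.87) and 1.57 (0.90 to 2.24). AT4TE09080, of 12574 bp, had 109 and 278 H3 reads and H3K4me3 reads of 92 and 746, a change of 2.02 (1.58 to 2.47), with an H3K9me2 change of -1.06. A shorter copy in an arm of chromosome 3, AT3TE20780 (4929015 to 4932433), lost nearly all its H3K9me2, with 342 reads in leaf and 7 in culture. Its H3 reads were 29 and 28, and scaled to nuclear reads it was the 1 VANDAL21 element called lower for H3. Its H3K9me2 change was -5.12 (-6.37 to -3.87). It overlaps the gene AT3G14670. These 3 copies show the loss of H3K9me2 without a called gain of H3, and AT3TE20780 shows it with a lower H3. AT2TE13445 was the exception among the long copies for H3K27me3, with 50 reads in leaf and 568 in culture and a change of 1.70 (1.04 to 2.36), where 7 others were called lower. Those lower calls depend in part on the H3 gain, since 4 of the 7 were above 0 without H3, and the summed change of the 16 was then 1.00 in place of -0.90.

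In 2 elements of other families with high H3 the surroundings were higher as well. AT5TE49700, a VANDAL3 element on chromosome 5 (13941661 to 13947805), had 49 H3 reads in leaf and 1490 in culture, a change of 3.79, with 2.40 in the intervals beside it. AT1TE56135, a VANDAL4 element of 19356 bp, had 157 and 1431, a change of 2.08, with 2.38 beside it. At the low end, AT2TE43060 (VANDAL2) changed by -2.79 in H3 beside -0.87 around it, AT5TE54450 (VANDAL1N1) by -2.01 beside 0.17, and AT5TE61035 (VANDAL1N1) by -1.54 beside -0.72. AT4TE10490 (VANDAL18), AT4TE10585 (VANDAL16) and AT4TE10185 (VANDAL11) lie within the same pericentromeric stretch of chromosome 4. Their H3 changes were -1.07, -1.01 and -1.13, and those of the surrounding intervals -1.40, -1.33 and -0.42.

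VANDAL6, the other family with a described VANC protein, has 89 members, 25 of them above the H3 minimum. It had 1229 H3, 1219 H3K4me3, 1839 H3K27me3 and 8030 H3K9me2 reads in leaf, and 2894, 4317, 3731 and 3899 in culture. Its H3 changed by only 0.13 (0.03 to 0.23). The H3K9me2 level fell from 2.39 to 0.36, a change of -2.02 (-2.13 to -1.91). The H3K4me3 level went from -0.53 to 0.42, a change of 0.95 (0.82 to 1.08), and VANDAL6 had the largest H3K4me3 change of the 23 families. The difference in H3K4me3 change from all other VANDAL families was 1.03 (0.89 to 1.17), and neither value rested on 1 element, since without the most covered one VANDAL6 stood at -2.08 for H3K9me2 and 0.94 for H3K4me3.

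By element, 15 of 25 VANDAL6 elements were called lower for H3K9me2 and none higher, a share not far above the 51.9% of all transposable elements. For H3K4me3, 10 of 25 were called higher and none lower. Among all transposable elements 14.7% were called higher and 9.97% lower for H3K4me3, and over all VANDAL elements 43 and 28 of 385 were. The 11 VANDAL6 elements over 4000 bp carried most of this. For H3K9me2, 10 of the 11 were called lower, where 68.0% of non-VANDAL elements over 4000 bp were. For H3K4me3, 7 of the 11 were called higher, where 18.3% of those non-VANDAL elements and 6.04% of other VANDAL elements over 4000 bp were. The H3K9me2 reads of the 11 had a lowest value of 134, a median of 709 and a highest of 877 in leaf, and of 170, 221 and 530 in culture. Their H3K4me3 reads were 40, 67 and 109 in leaf and 59, 308 and 550 in culture. All 11 had an H3K4me3 level below 0 in leaf, and 10 had one above 0 in culture.

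AT3TE70635 (chromosome 3, 17429622 to 17437290, in the arm) is a clear case. It had 79 H3, 44 H3K4me3 and 754 H3K9me2 reads in leaf and 206, 433 and 170 in culture, with changes of 2.26 (1.68 to 2.84) for H3K4me3 and -3.26 (-3.70 to -2.82) for H3K9me2. The shorter AT3TE44950, of 1866 bp, had 4 H3K4me3 reads in leaf and 134 in culture beside 18 and 22 H3 reads, a change of 4.84 (3.28 to 6.40), and its H3K9me2 reads were 71 and 10. The 1 long VANDAL6 element outside the pattern was AT5TE48190, on chromosome 5, named here after its values were seen. It had 134 H3K9me2 reads in leaf, the fewest of the 11, and 358 in culture, and its H3K4me3 reads were 51 and 59. With changes of 0.51 and -0.59 it lay on the opposite side of 0 from the other 10 for both marks.

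Across all families, 26 elements were called lower for H3K9me2 and higher for H3K4me3, 6.75% of the 385 against 9.80% of all transposable elements. VANDAL6 held 9 of them and VANDAL21 held 7, with 3 in VANDAL20 and 1 each in 7 other families. In the 7 VANDAL21 elements the H3K4me3 call does not come from Hiun, whose H3K4me3 over H3 was lower in culture. AT2TE11500, a VANDAL21 element of 2687 bp on chromosome 2, had 11 H3K4me3 reads in leaf and 131 in culture, beside 24 and 33 H3 reads, a change of 3.38 (2.24 to 4.51). It overlaps the gene AT2G06420, so the reads may belong to either annotation.

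**Figure D4:**
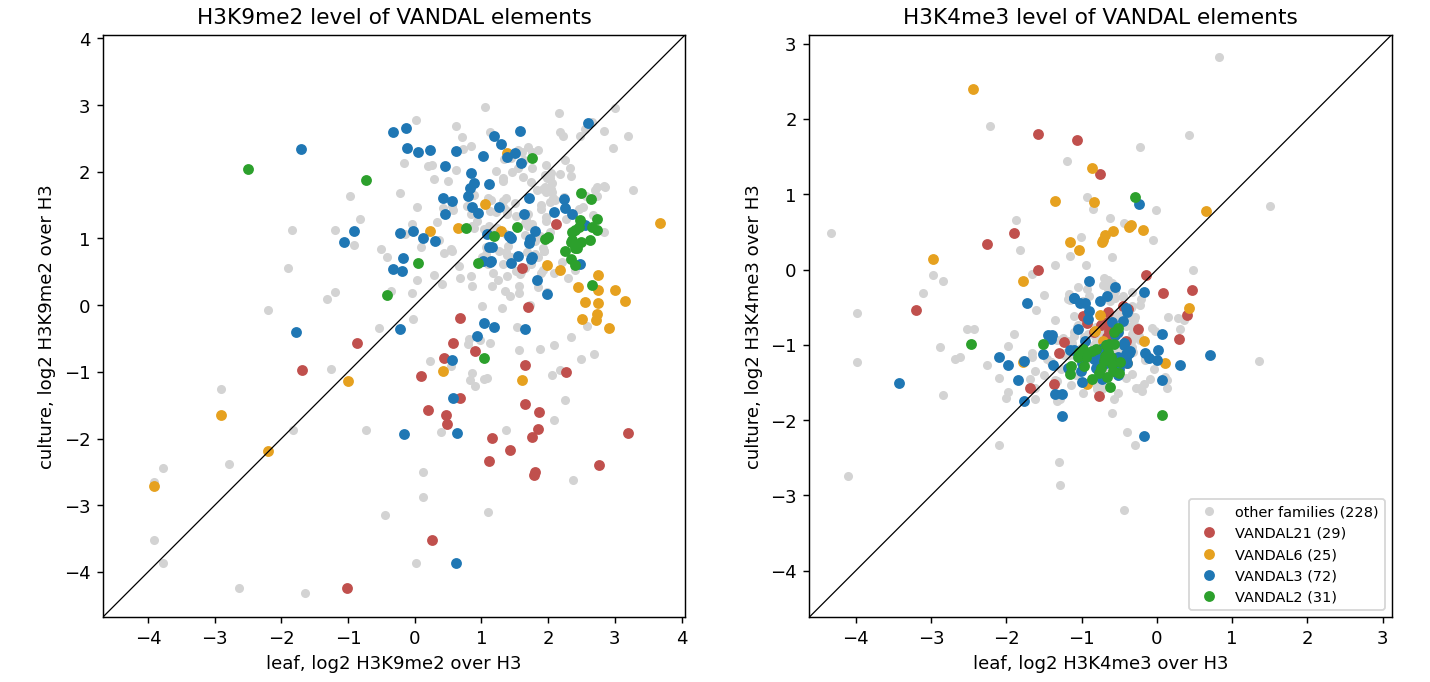
Level over H3 of the 385 VANDAL elements above the H3 minimum in leaf (x axis) and culture (y axis), on a log2 scale, for H3K9me2 and H3K4me3. Points below the diagonal are lower in culture. VANDAL21 and VANDAL6 lie mostly below it for H3K9me2, VANDAL2 mostly below it too, VANDAL3 on both sides, and most VANDAL6 elements lie above it for H3K4me3.

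The VANDAL2 H3K9me2 level went from 2.31 in leaf to 1.02 in culture (change -1.30, interval -1.36 to -1.23), so it stayed 2-fold over H3. Among its 19 elements over 4000 bp, 16 were called lower and none higher, against 68.0% and 4.52% of non-VANDAL elements over 4000 bp. All 19 were above 0 in both sample types, between 1.18 and 2.73 in leaf and between 0.30 and 1.59 in culture. H3K4me3 was under H3 in all 19 in both sample types, and no long VANDAL2 element was called higher or lower for H3K4me3 or H3K27me3. VANDAL14 went from 2.77 in leaf to 1.60 in culture, with 6 of 8 elements called lower. VANDAL16 and VANDAL22 dropped further, from 1.91 to 0.11 and from 2.40 to 0.55, each with 5 elements called lower (of 8 and of 7) and none higher. Among all transposable elements 51.9% were called lower for H3K9me2 and 8.87% higher. The VANDAL15 value rests on 1 element: without it the change was -0.09 in place of -1.09.

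VANDAL3, with 177 members and 72 above the H3 minimum, held elements of both kinds, 18 called higher and 14 lower for H3K9me2. Among all transposable elements 8.87% were called higher and 51.9% lower. Between 1000 and 4000 bp, 16 of 49 were called higher and 10 lower, against 9.70% and 48.8% of non-VANDAL elements of that length. The summed VANDAL3 change there was 0.41. Over 4000 bp, 1 of 20 was called higher and 3 lower, against 4.52% and 68.0%, and the summed change was -0.23. AT2TE12095 had 9 H3K9me2 reads in leaf and 206 in culture beside 25 and 38 H3 reads, a change of 4.04 (2.88 to 5.20). AT2TE18940 had 32 and 316, a change of 2.79 (1.95 to 3.64), and AT3TE50985 had 16 and 214, a change of 2.92 (1.82 to 4.02). All 3 are pericentromeric elements of 1623 to 1785 bp that had little more H3K9me2 than H3 reads in leaf, or fewer.

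Outside VANDAL3, AT2TE11400 (VANDAL2, 2650 bp) had 29 H3K9me2 reads in leaf and 394 in culture, a change of 2.61 (1.86 to 3.36). Its H3K4me3 went the other way, from 59 to 29 reads, with a change of -2.0 (-2.83 to -1.18). AT1TE56365 of the small family VANDALNX1 had 18 and 200 H3K9me2 reads and a change of 2.76 (1.63 to 3.89). The highest value of all, 4.54 for AT2TE43060 (VANDAL2, 95 bp), rests on an interval dense in H3. It had 76 H3 reads in leaf over 95 bp, more than 20 times the median density of genes, and 23 in culture, and H3K9me2 reads of 16 and 102. Opposite to these, AT2TE10160 (VANDAL18, 1425 bp) had 122 H3K9me2 reads in leaf and 8 in culture beside 18 and 52 H3 reads, a change of -5.00 (-6.23 to -3.76).

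H3K27me3 was under H3 in leaf over most families. At the family level none was 2-fold over H3 in leaf and 5 were in culture. The summed change was above 0 in 18 families and at least 2-fold higher in 8. By element, 79 were called higher and 31 lower, where 19.2% of all transposable elements were called higher and 12.9% lower. VANDAL shares were 20.5% and 8.05%. The median transposable element had moved by -0.16 for H3K27me3 and by 0.01 for H3K4me3. Relative to these medians, 92 VANDAL elements were higher and 19 lower for H3K27me3 (21.7% and 9.31% of all transposable elements), and 43 and 29 for H3K4me3 (14.5% and 10.0%). Only 4 VANDAL elements were 2-fold over H3 for H3K27me3 in leaf and 44 were in culture, with shares of 3.08% and 13.6% among all transposable elements. For H3K4me3 the numbers were 2 in leaf and 10 in culture, with shares of 1.13% and 6.64% among all transposable elements.

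Of the 23 families, the highest for H3K27me3 were the non-autonomous VANDAL1N1 and VANDAL2N1. VANDAL1N1 had 298 H3 and 282 H3K27me3 reads in leaf and 375 and 1778 in culture, a change of 2.04 (1.76 to 2.33). VANDAL2N1 had 447 and 440 in leaf and 961 and 3798 in culture, a change of 1.72 (1.51 to 1.94). Their namesakes without the N had lower values, with 0.06 for VANDAL1 and -0.29 for VANDAL2, the latter turning to 0.20 without H3 and to 0.27 when scaled to the median gene. The difference in change was 1.98 (1.68 to 2.28) between VANDAL1N1 and VANDAL1 and 2.01 (1.78 to 2.24) between VANDAL2N1 and VANDAL2. It was of similar size between elements of 1000 to 4000 bp only, at 2.13 (1.66 to 2.60) and 1.53 (1.19 to 1.88). Without H3 the differences over all lengths were 0.77 (0.58 to 0.96) and 1.52 (1.37 to 1.68), smaller for the first pair in particular. VANDAL1N1 H3 changed by -0.77 against 0.44 in VANDAL1, and VANDAL2N1 H3 by less than 0.01 against 0.49 in VANDAL2. Not all non-autonomous families had the higher H3K27me3 value. The difference between VANDAL18NA, with 1 element above the H3 minimum, and VANDAL18 was -1.40 (-1.99 to -0.82). Between VANDAL18NB, with no element above the minimum, and VANDAL18 it was 2.16 (1.46 to 2.87), and the VANDAL18NB value rests mostly on 1 element.

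The VANDAL1N1 and VANDAL2N1 pairs differed for H3K9me2 as well. VANDAL1N1 was at 0.50 and VANDAL1 at -0.92, a difference of 1.42 (1.14 to 1.69). VANDAL2N1 was at 0.28 and VANDAL2 at -1.30, a difference of 1.58 (1.38 to 1.77). For elements of 1000 to 4000 bp these differences were 1.17 (0.76 to 1.58) and 0.57 (0.28 to 0.85), and without H3 neither was distinguishable from 0 at that length, at -0.12 (-0.32 to 0.07) and -0.06 (-0.19 to 0.07). In the VANDAL1N1 and VANDAL2N1 pairs the H3K27me3 gap was thus present on either scale, and the H3K9me2 gap depended on length and on H3. For VANDAL18NA and VANDAL18NB against VANDAL18 the H3K9me2 differences had the opposite sign, at -3.11 and -1.37.

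The gain was spread over VANDAL2N1. Of its 19 elements above the H3 minimum 12 were called higher for H3K27me3 and none lower, against 19.2% and 12.9% of all transposable elements. All 19 VANDAL2N1 elements had a change above 0 over H3. Without H3, 18 of the 19 did, and the lowest value was -0.87. Their H3K27me3 reads had a lowest value of 3, a median of 24 and a highest of 39 in leaf, and of 20, 136 and 429 in culture. Their H3K9me2 level had a median of 1.76 in leaf and 1.98 in culture. The H3K27me3 level in culture was above 0 in 16 of the 19 and below 0 in 3, with a lowest value of -0.64 and a median of 0.92. Whether both marks sat on the same copies in the same cells was not tested. AT3TE59315 (1262 bp) had the largest value, with 3 H3K27me3 reads in leaf and 136 in culture beside 10 and 13 H3 reads, a change of 4.47 (2.64 to 6.30). Its surroundings changed by 1.48 (1.11 to 1.85), and it overlaps the VANDAL2N1 element AT3TE59320, so its reads may be shared with that element. In VANDAL1N1, 5 of 10 were called higher and 1 lower. AT5TE54450 had 15 H3K27me3 reads in leaf and 312 in culture, beside 29 and 15 H3 reads, a change of 4.91 (3.78 to 6.05), and its surroundings changed by 1.14 (0.75 to 1.53). It overlaps the VANDAL2N1 elements AT5TE54455 and AT5TE54460, so its reads may be shared with them.

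VANDAL8, VANDAL7 and VANDAL4 followed, at 1.61, 1.46 and 1.11, with 9 of 15, 6 of 8 and 10 of 26 elements called higher and 1, 0 and 0 lower. AT5TE39230, a VANDAL8 element of 4775 bp on chromosome 5, had 42 H3K27me3 reads in leaf and 2113 in culture. Its H3 reads were 36 and 137, its change 3.44 (2.76 to 4.12), and the change beside it 0.70 (0.23 to 1.16). AT3TE57645, a longer VANDAL8 element of 8901 bp, had 58 and 1693, a change of 3.12 (2.58 to 3.66), with 1.84 (1.52 to 2.16) beside it. AT1TE46430 (VANDAL4, 807 bp) had 7 and 561 beside 10 and 30 H3 reads, a change of 4.36 (2.94 to 5.77). In AT3TE47645, of VANDAL17, the surroundings changed as much as the element, 3.62 (3.01 to 4.23) beside 3.72 (2.60 to 4.83). The VANDAL12 value of 1.10 came from 1 element, AT3TE60865, and was 0.10 without it, and the median of its elements above the minimum was -0.45, opposite in sign to the sum. In VANDAL18NB, a family with no element above the H3 minimum, AT3TE60845 likewise held 87.9% of the culture H3K27me3 reads, and 2.53 became 0.38 without it.

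**Figure D5:**
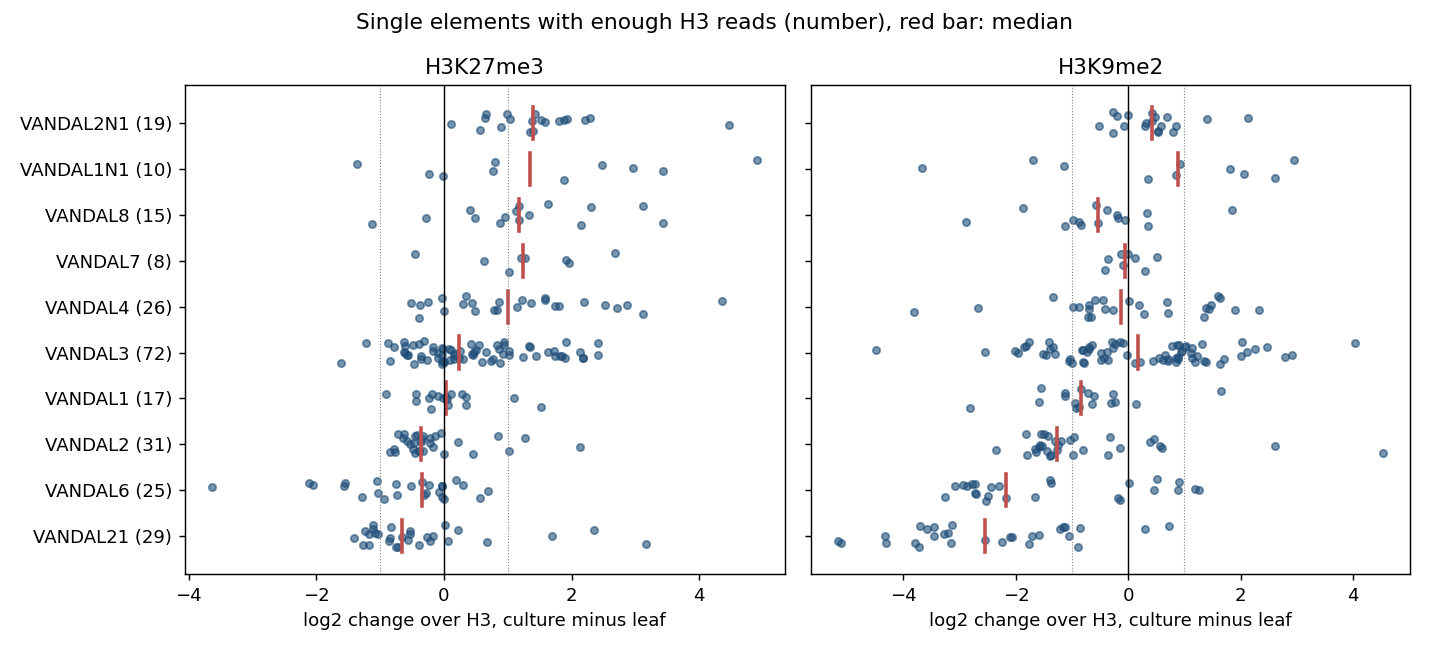
Log2 change over H3 from leaf to culture of single elements above the H3 minimum in 10 VANDAL families, for H3K27me3 and H3K9me2. Points are elements with vertical scatter added for legibility, red bars are medians, dotted lines mark 2-fold, and the number of elements is in brackets. All 19 VANDAL2N1 elements lie above 0 for H3K27me3, and VANDAL21 and VANDAL6 have the lowest medians of the 10 for H3K9me2.

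Of the 31 elements called lower for H3K27me3, VANDAL21 held 9, VANDAL6 held 5 and VANDAL17 held 4. AT2TE17850 (VANDAL6, 329 bp) had 55 H3K27me3 reads in leaf and 7 in culture, a change of -3.64 (-5.11 to -2.16). The VANDAL17 elements AT3TE12390 and AT2TE64130 overlap the genes AT3G09620 and AT2G34300, so their reads may be those of the genes. They had 29 and 11 H3K27me3 reads in leaf and 7 and 1 in culture. AT3TE67755 (VANDAL6, 535 bp) had 32 and 10, a change of -2.11 (-3.49 to -0.74).

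The calls for H3K9me2 and H3K27me3 were compared element by element. Of the 134 elements called lower for H3K9me2, 12 were called higher for H3K27me3 and 17 lower, which is 3.12% and 4.42% of the 385 against 4.94% and 8.51% of all transposable elements. Of the 45 called higher for H3K9me2, 18 were called higher for H3K27me3 and none lower. These are 4.68% and 0% of the 385, against 3.95% and 0.412% of all transposable elements. Because both changes are divided by the same H3 libraries, a low or high H3 value moves them together, and these counts are given without a test.

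H3K4me3 stayed under H3 in most families. Only VANDAL17 was above 0 in leaf (0.27), and 3 families were in culture: VANDAL17 at 0.25, VANDAL6 at 0.42 and VANDAL8 at 0.11. VANDAL17, the family with the most members (178), is also the one most mixed with genes: 56.2% of its members overlap one and 34.8% are pericentromeric. It had the lowest leaf H3K9me2 level of the 23 families, 0.61, and its level in culture was 0.30. VANDAL8 changed by 0.59 (0.44 to 0.74) for H3K4me3 with 5 elements called higher and 1 lower. Its element AT1TE35305 (2275 bp, in the arm of chromosome 1) had 14 H3K4me3 reads in leaf and 166 in culture beside 23 and 54 H3 reads, a change of 2.64 (1.61 to 3.67).

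In VANDAL12, H3K4me3 was called higher in 2 elements and lower in 3. AT5TE54525 (732 bp) had 3 H3K4me3 reads in leaf and 70 in culture, a change of 4.12 (2.34 to 5.91), and AT4TE46310 (781 bp) had 0 and 35, beside 13 and 22 H3 reads. AT2TE13115, which overlaps AT2G07240, had 43 and 23 beside 11 and 49 H3 reads, a change of -2.57 (-3.73 to -1.41). VANDAL7, one of the families that gained H3K27me3, had a lower H3K4me3 (-0.53, and -0.21 without H3). In its element AT4TE25065 (9560 bp) H3K4me3 reads went from 117 to 79 and H3K27me3 reads from 98 to 1045, with changes of -1.36 (-1.91 to -0.82) and 1.96 (1.49 to 2.43). AT2TE22330 (VANDAL9, 1086 bp) showed the same pairing with a loss of H3K9me2 as well: its H3K9me2 reads were 42 and 5, its H3K27me3 reads 7 and 114 and its H3K4me3 reads 16 and 5.

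Length and position separated the changes further. Over 4000 bp, 74 of 160 elements were called lower for H3K9me2 and 4 higher, and without VANDAL21 59 of 144 and 4. The VANDAL shares were 46.3% and 2.50%, against 68.0% and 4.52% of the other elements over 4000 bp. Between 1000 and 4000 bp the calls were 49 lower and 34 higher among 180 above the minimum. These are 27.2% and 18.9%, against 48.8% and 9.70% of other elements of that length. For H3K27me3, 54 of these 180 (30.0%) were called higher and 10 (5.56%) lower, against 23.2% and 13.2% of other elements of that length. The summed H3K27me3 change was 0.91 at that length and 0.23 over 4000 bp, and in other elements 1.29 and 0.16, so both groups had the higher value at the shorter length. In the arms, 594 elements had a summed H3K9me2 level of 2.19 in leaf and 1.09 in culture, and in the pericentromeres 971 had 1.65 and 0.99. The arm change of -1.11 became -0.82 without AT2TE42810, and the pericentromeric change was -0.66. Without H3 the change was -0.75 in the arms, with or without AT2TE42810, and only -0.10 in the pericentromeres. H3K27me3 changed by 0.50 in the pericentromeres and by -0.05 in the arms without that element. In other elements the summed H3K9me2 change was 0.02 in the arms and -0.90 in the pericentromeres, and -0.85 and -0.54 without H3. Their H3K27me3 changes were 0.72 and 1.01, also higher in the pericentromeres. Over VANDAL elements all 5 chromosomes had a lower summed H3K9me2 in culture, from -1.05 on chromosome 1 to -0.62 on chromosome 4. Without H3 the range was from -0.58 on chromosome 4 to -0.03 on chromosome 2.

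The genes that maintain silencing of such elements were read for H3K4me3 and H3K27me3. Of 15 genes of DNA methylation, H3K9 methylation and small RNA pathways, 2 were called higher for H3K4me3, 1 lower and 12 neither, where 12.6% of protein-coding genes were called higher and 8.40% lower. The higher ones were CMT3, the methyltransferase of CHG sites that reads H3K9me2, at 1.15, and AGO4, which binds small RNAs in RNA-directed DNA methylation, at 1.57. For H3K27me3, 3 were called lower (SUVH5, RDR2 and AGO4) and none higher, where 25.6% of protein-coding genes were called lower and 2.68% higher. SUVH5, an H3K9 methyltransferase, had 3 H3K9me2 reads in leaf and 127 in culture. NRPD1, the largest subunit of RNA polymerase IV, had 64 H3, 127 H3K4me3, 73 H3K27me3 and 13 H3K9me2 reads in leaf and 2236, 1480, 1633 and 2299 in culture. Its H3K4me3 over H3 was the 1 called lower (-1.21), on reads that multiplied in all 4 culture libraries. DDM1, the chromatin remodeller needed for H3K9me2 over transposons, was called in neither direction for either mark, at 0.76 and -0.16. Whether any of these genes bears on the VANDAL values was not tested.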

How the data were processed

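Each of the 8 libraries came as read counts per annotated interval, deposited by the authors. The submitters' processing notes name Bowtie2, bedtools and TAIR10. Read length, duplicates and the placing of reads with several matches are not stated in the labels or notes, and reads in nested intervals count for each. Counts were scaled to nuclear reads. Log2 changes of single elements used a pseudocount of 1, and sums none. Intervals are 95% intervals from the Poisson error of the summed or single counts on the log scale. Computation used Python 3.11.15, NumPy 2.4.6, pandas 2.3.3 and SciPy 1.17.1, and the calls were tested on simulated data. Flanks are intervals up to 20 kb long within 5 kb of an element that overlap it by at most 50 bp. Pericentromeres were set by hand at 12 to 18, 1 to 7, 11 to 17, 1 to 6 and 9 to 15 Mb of chromosomes 1 to 5. Genes were matched to symbols through RefSeq (TAIR10.1).

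Families with at least 3 elements above the H3 minimum are named. Elements were named from the 6 highest and 6 lowest per mark and for H3, ranked by the interval end nearer 0, with AT2TE42810. Other elements named (the long VANDAL21 copies, AT5TE48190, AT3TE60845 and AT3TE60865) were chosen after their values were seen. Members, gene lists and rules were chosen with earlier results of these data known. The comparison of H3, the pairs of namesake families, the length-matched differences, and the values without nested elements, VANDAL21, AT2TE42810 or the most covered element were added after seeing the data. Alternatives tried were marks without H3, scaling to the median element or gene, other filters, pseudocounts and folds, and leaving out H3-dense or gene-overlapping intervals. No genome was used here, so planned sequences are not shown.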

Additional observations from a re-analysis of the deposited data

How the results depend on the processing

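Of the values over all VANDAL elements (the summed change, the median change and the counts called higher and lower for each mark), 68 stayed within the counting interval or within 1.5 times the count, and 49 moved, as follows. For marks without H3, H3K9me2 had a sum of -0.26, a median of -0.19 and 76 higher, H3K27me3 0.88, 0.43 and 121 higher, and H3K4me3 0.50, 0.14 and 65 higher. Scaled to the median element, H3K9me2 had 0.37, 0.71, 149 higher and 47 lower, and H3K27me3 0.51, 0.22 and 19 lower. Scaled to the median gene, H3K9me2 had -1.36, -1.02 and 26 higher, H3K27me3 0.91, 0.61, 122 higher and 5 lower, and H3K4me3 -0.13 and -0.30. With no filter, H3K9me2 had a median of -0.073, 105 higher and 226 lower, H3K27me3 155 and 86, and H3K4me3 a median of 0.14, 92 and 53. Without H3-dense intervals, H3K9me2 had -0.45, a median of -0.12 and 71 higher, and the H3K27me3 and H3K4me3 sums were 0.39 and -0.085. Without gene overlap the H3K9me2 and H3K27me3 sums were -0.68 and 0.48. With a 3-fold rule H3K9me2 had 29 higher and 81 lower, H3K27me3 9 lower, and H3K4me3 26 and 9. With a pseudocount of 5, 18 were lower for H3K4me3. Without VANDAL21 the sums were -0.63, 0.47 and -0.070. Of the families, VANDAL15 turned to 0.064 for H3K9me2 when scaled to the median element. Of the elements, H3K27me3 without H3 turned to 1.15 in AT2TE06955, 1.24 in AT3TE48070 and 2.98 in AT2TE42810, and was also above 0 in 1 other long VANDAL21 copy called lower. The 3-fold and no-filter counts differ by construction, and for the others the cause was not tested. No paired analysis was possible because there was 1 library per antibody and sample type. Depth limits single elements to those with at least 10 H3 reads in both libraries, so most short VANDAL elements were read only in sums.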
